A study of Mus musculus with 28 samples.

Results

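The 10 genes described here encode the enzymes and secreted bone proteins through which a cell prepares its matrix for mineral: Alpl, Phospho1, Enpp1, Ibsp, Spp1, Dmp1, Mepe, Bglap, Bglap2 and Phex. They were taken by symbol, as a set named with earlier results of these data known, and all 10 were found among the 54429 genes of the deposited count table, of which 28192 had at least 1 count. RNA sequencing covered 28 libraries of O9-1, a mouse line of cranial neural crest cells, the embryonic cells that form much of the face and the front of the skull. The comparison addressed how the line differentiates at 21% O2, with 4 libraries a state, and at 0.5% O2, with 3 libraries a state. Proliferating cultures grew in conditioned medium with 15% fetal calf serum, 25 ng/ml bFGF and 5 ng/ml LIF. Osteoblast cultures spent 10 days in osteogenic medium with 10% serum, 100 ng/ml BMP-2, 0.1 µM dexamethasone and 10 mM beta-glycerophosphate, a phosphate donor. Chondrocyte cultures spent 3 days in the osteogenic medium and then 7 days as dense drops of cells in medium with 5% serum, 50 ng/ml BMP-2, 10 ng/ml TGF-beta3 and 0.1 µM dexamethasone. Smooth muscle cultures spent 3 days in medium with 10% serum. All groups derive from this single cell line, and the labels do not say whether replicates were separate cultures, so p-values measure only the spread between these samples, which may be technical.

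Bone and the calcifying zone of growth plate cartilage mineralise when phosphate meets calcium in membrane vesicles and on collagen. PHOSPHO1 releases phosphate inside the vesicles, ALPL (tissue-nonspecific alkaline phosphatase) cleaves pyrophosphate, an inhibitor of crystal growth, on their surface, and ENPP1 makes that pyrophosphate. Bone sialoprotein (Ibsp), osteopontin (Spp1), DMP1 and MEPE are acidic secreted proteins of the SIBLING family that bind mineral and cells, osteocalcin (Bglap, Bglap2) is the late osteoblast protein, and PHEX is a membrane peptidase that degrades SIBLING-derived inhibitory peptides.

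Dmp1, Ibsp, Mepe and Spp1 lie in this order on chromosome 5, together with Dspp, within 270 kb (chr5:104170712-104441050, mm10, the build of the submitters' processing notes, which GENCODE release 21 shares). Bglap and Bglap2 lie with Bglap3 within 15.8 kb (chr3:88368616-88384464). Alpl (chr4:137741733-137796384), Enpp1 (chr10:24637914-24712159), Phospho1 (chr11:95824499-95832140) and Phex (chrX:157162075-157415312) stand alone. All 10 are annotated as protein-coding, and the counts run over whole genes.

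RefSeq promoters (build GRCm38.p6) matched 9 of the 10 genes with 12 start sites, and Bglap2 had no entry. The 250 bases before each start were searched on both strands for TGTGGT, which RUNX2, the osteoblast master factor, binds, and for ACGTG, the core that hypoxia-inducible factors bind. The promoters shown are those of Phospho1 and Enpp1, whose levels moved in opposite directions at low oxygen in proliferating cells and osteoblast cultures, and of Mepe and Spp1, neighbours of which Spp1 was abundant in every library and Mepe had no count in proliferating cells. Capitals mark matches to either motif on either strand, and in Phospho1 the first run of capitals matches ACGTG on both strands.
Phospho1, chr11:95824250-95824499, plus strand: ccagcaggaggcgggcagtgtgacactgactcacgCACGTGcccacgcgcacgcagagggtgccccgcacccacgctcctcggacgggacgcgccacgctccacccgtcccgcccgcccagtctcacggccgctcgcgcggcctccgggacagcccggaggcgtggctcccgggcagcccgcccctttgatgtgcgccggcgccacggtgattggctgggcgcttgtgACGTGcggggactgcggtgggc
Enpp1, chr10:24712160-24712409, minus strand: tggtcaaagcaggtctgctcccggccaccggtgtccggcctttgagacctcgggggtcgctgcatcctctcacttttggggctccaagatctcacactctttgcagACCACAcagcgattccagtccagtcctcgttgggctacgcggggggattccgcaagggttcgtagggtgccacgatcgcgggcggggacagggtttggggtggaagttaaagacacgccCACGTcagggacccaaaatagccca
Mepe, chr5:104325079-104325328, plus strand: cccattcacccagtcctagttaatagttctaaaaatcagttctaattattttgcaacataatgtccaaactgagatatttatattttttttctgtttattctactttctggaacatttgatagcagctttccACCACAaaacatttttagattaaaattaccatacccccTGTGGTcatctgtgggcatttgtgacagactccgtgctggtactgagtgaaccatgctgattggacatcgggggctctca
Spp1, first start site, chr5:104434861-104435110, plus strand: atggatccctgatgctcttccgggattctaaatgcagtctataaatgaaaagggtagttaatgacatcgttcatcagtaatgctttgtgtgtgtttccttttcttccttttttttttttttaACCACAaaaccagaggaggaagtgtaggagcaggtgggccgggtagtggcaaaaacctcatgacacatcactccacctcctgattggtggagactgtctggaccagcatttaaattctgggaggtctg
The RUNX letters were in 5 of the 12 member windows (Bglap, Dmp1, Enpp1, Mepe and Spp1, 1 window each) against 14.0% of 32851 promoter windows of the same length in the table. The hypoxia core was in 3 of the 12 (Dmp1, Enpp1 and Phospho1) against 16.6% of all windows. TATAAA was in 5 windows (Alpl, Bglap, Ibsp, Mepe and Spp1) against 12.4%, and TAATTA, a homeodomain motif, in 2 (Mepe and Spp1) against 4.84%. CCAAT was in 7 windows of 6 genes (Bglap, Dmp1, Ibsp, Mepe, Phospho1 and Spp1) against 33.8%. In Ibsp both CCAAT and TATAAA lay on the reverse strand, starting at -54 and -28 from the start site, and neither the RUNX letters nor the hypoxia core was found. These matches describe the letters only.

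The libraries held 19869271 to 64693346 counts. Levels are given as counts per 1000000 counts (CPM) scaled over all 28 libraries by the trimmed mean of M-values (TMM), and a change was called where edgeR's quasi-likelihood test gave a Benjamini-Hochberg adjusted p under 0.05 over all genes tested in that comparison. The labelled states were checked against marker genes. Summed chondrocyte markers (5 genes) ran from 2817 to 8323 CPM in the chondrocyte cultures at 21% O2 and from 847 to 1267 CPM at 0.5% O2. Summed osteoblast markers (6 genes, including Alpl, Ibsp and Bglap) were 5785 to 9559 CPM in the osteoblast cultures at 21% O2 but 36043 to 44510 CPM in the chondrocyte cultures. At 0.5% O2 they were 8812 to 11154 and 43591 to 50289 CPM, so by this sum the label osteoblast does not mark the richest cultures. Alpl and Ibsp, at means of 264 and 1169 CPM in the chondrocyte cultures at 21% O2, were a small part of it. Runx2, named here after its values were seen, was lower in osteoblast than in chondrocyte cultures at 21% O2 (log2 difference -0.46) but higher at 0.5% O2 (+0.75, edgeR adjusted p = 2.13e-05). The 3 libraries labelled smooth muscle at 0.5% O2 stood apart: their 4 smooth muscle markers summed to 27.8 to 40.9 CPM, against 3432 to 3844 CPM at 21% O2 and 36.6 to 43.8 CPM in proliferating cells at 0.5% O2, and mitochondrial ribosomal RNA took 11.6% to 13.3% of their counts against at most 0.0889% elsewhere. Replicate 4 of the osteoblast cultures at 21% O2 also stood apart, with 1466 CPM of summed chondrocyte markers against at most 198 CPM in the other 3. In these bulk samples, fewer cells of a type and less RNA per cell cannot be told apart.

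At low oxygen 8 of 10 members fell in chondrocyte cultures, against 11.8% of all genes, and 7 of 9 tested rose in osteoblast cultures, against 27.0% of all genes. Both held for 5 members (Spp1, Bglap2, Dmp1, Mepe and Phex). These counts describe the members and support nothing, since 4 of the 8 (Bglap, Bglap2, Mepe and Phex) and 2 of the 7 (Bglap2 and Phospho1) passed the filter on low counts only through the group where they are high, which fixed their direction. Of the 6 members with at least 10 counts in every library of the pair, 4 fell in chondrocyte cultures, and in osteoblast cultures 4 of 6 rose and 1 fell. The 8 members called in chondrocyte cultures were 5 to 7 when 1 library was left out, 5 with limma-voom and 6 without the filter on low counts. The changes at low oxygen differed between these 2 culture types for 9 of the 10 members, all in the direction of osteoblast cultures, against 20.1% of all genes tested called in that direction and 17.7% in the other. Here 5 of the 9 had a group that alone would not have passed the filter, and of the 5 members with at least 10 counts in every library 4 were called. Enpp1 was the tenth: it fell at low oxygen in all 4 culture states, and its falls in these 2 culture types were not shown to differ. Phospho1 rose at low oxygen in proliferating cells as well as in osteoblast cultures, and Phex was highest in proliferating cells.

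**Figure D1:**
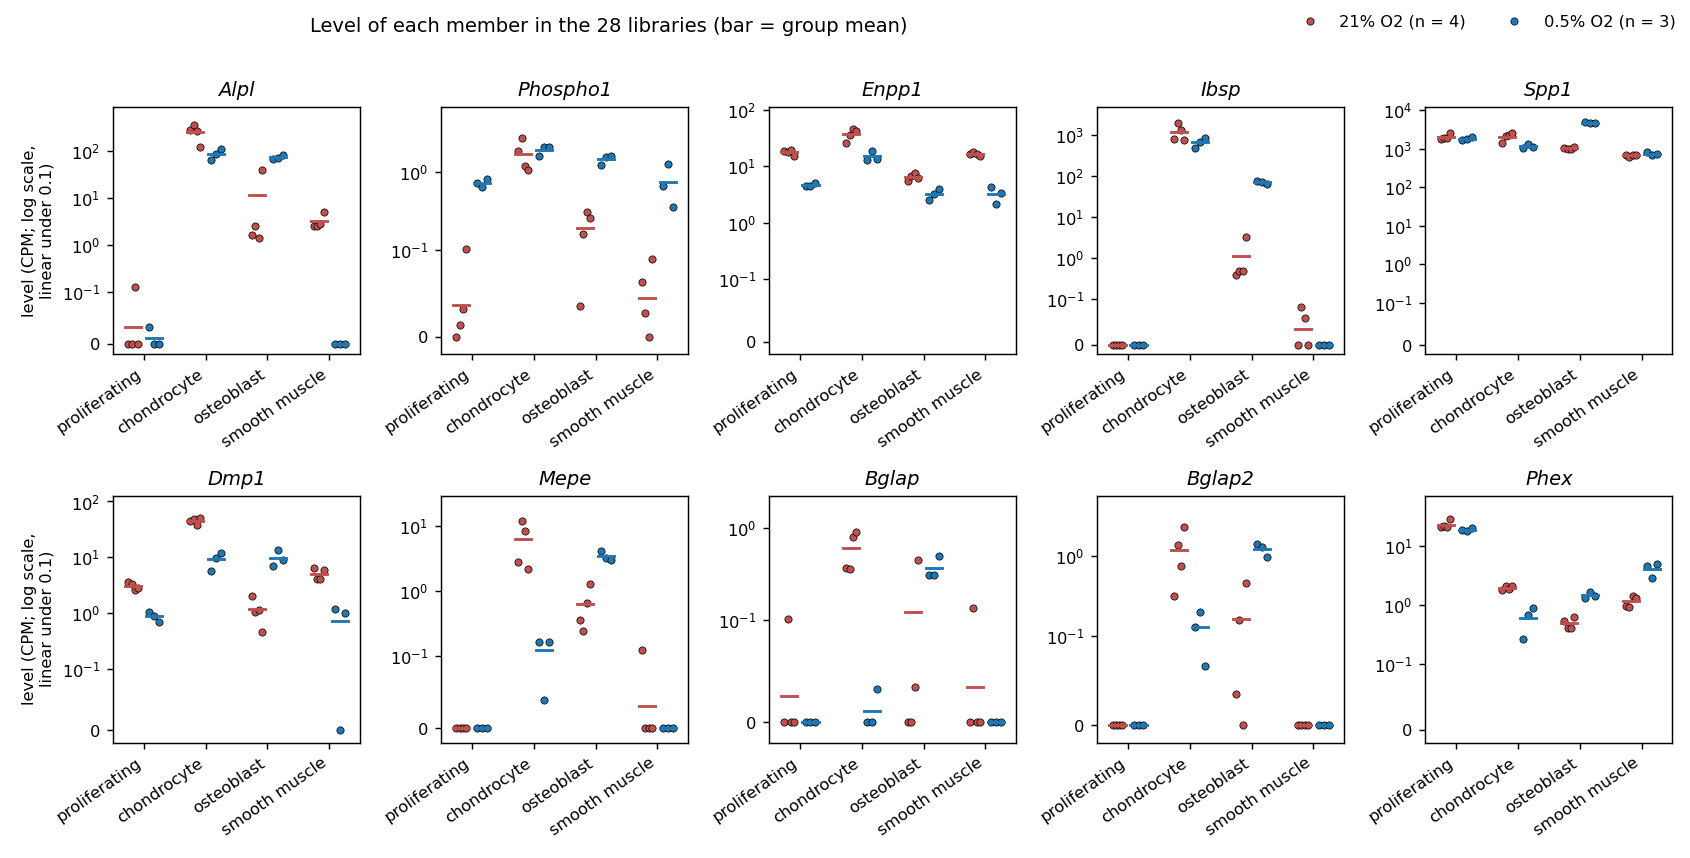
Level of each of the 10 genes (vertical axis, CPM, log scale that is linear under 0.1) in the 4 culture states, red for 21% O2 (n = 4) and blue for 0.5% O2 (n = 3), with 1 point per library and a bar at the group mean. Alpl, Ibsp, Dmp1 and Mepe are highest in chondrocyte cultures at 21% O2, Spp1 is highest in osteoblast cultures at 0.5% O2, and Phex is highest in proliferating cells.

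Alpl, the phosphatase, was nearly silent in proliferating cells. At 21% O2 it had 0 counts in 3 proliferating libraries and 4 counts in replicate 3 (0.128 CPM), and at 0.5% O2 it had 1 count in 3 libraries. In chondrocyte cultures it reached 293, 359, 278 and 126 CPM at 21% O2 and 66.5, 88.3 and 115 CPM at 0.5% O2. The 2 oxygen groups did not overlap, with replicate 4 lowest at 21% O2. In osteoblast cultures the 21% O2 libraries held 1.63, 2.56, 1.41 and 40.6 CPM, the last being replicate 4, and the 0.5% O2 libraries held 68.6, 72.9 and 84.2 CPM. These groups did not overlap either, and replicate 4 lay between the other 3 and the low-oxygen libraries. Smooth muscle cultures held 2.54, 2.55, 2.76 and 5.03 CPM at 21% O2, and the 3 libraries at 0.5% O2 had no Alpl count at all.

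Chondrocyte differentiation at 21% O2 raised Alpl by 13.33 on the log2 scale (SE 0.69, edgeR adjusted p = 4.43e-07), and the osteoblast and smooth muscle cultures raised it by 8.76 (SE 1.86, adjusted p = 0.0017) and 6.89 (SE 0.63, adjusted p = 8.92e-08). The osteoblast rise was 6.06 without replicate 4 of those cultures. All 3 sizes rest on the 4 counts of proliferating replicate 3, without which that group has no count and no fitted size is given. Without proliferating replicate 2 they were 12.55, 8.003 and 6.13. At 0.5% O2 the proliferating group rested on a single count, so the ratios are given with their 95% counting intervals: 7812 for chondrocyte cultures (1402 to 308560) and 6536 for osteoblast cultures (1173 to 258158). Low oxygen lowered Alpl in chondrocyte cultures by a log2 change of -1.57 (SE 0.41, edgeR adjusted p = 0.0445). That call was lost in 6 of the 7 edgeR fits without 1 library, all but the one without replicate 4 at 21% O2, with adjusted p up to 0.133. It was also lost without the filter on low counts (0.0821), with limma-voom (0.0544) and in 1 fit over all 28 libraries (0.156). In osteoblast cultures the log2 change was +2.69 (SE 1.25), which did not pass (edgeR adjusted p = 0.117). Without replicate 4 at 21% O2 it was +5.36 (adjusted p = 2.44e-11), and with that library kept it passed with limma-voom (+4.19, adjusted p = 0.00358) and in 1 fit over all 28 libraries (+2.69, adjusted p = 0.00465). In smooth muscle cultures the fall was at least 37.7-fold, taking 3 counts over the low-oxygen group as its floor (edgeR adjusted p = 4.06e-06, and 0.0612 in 1 fit over all 28 libraries).

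Phospho1, the vesicle phosphatase, had few counts in every library and rose at low oxygen in proliferating cells and osteoblast cultures. Proliferating cells had 0, 1, 1 and 3 counts at 21% O2 and 22, 18 and 24 counts at 0.5% O2, that is 0 to 0.103 CPM against 0.655 to 0.828 CPM. The osteoblast cultures had 1, 4, 9 and 8 counts at 21% O2 and 32, 46 and 45 at 0.5% O2. The groups were apart in both states, and low oxygen raised Phospho1 by 4.50 in proliferating cells (SE 0.64, edgeR adjusted p = 2.97e-05) and by 2.92 in osteoblast cultures (SE 0.49, adjusted p = 0.000936), both on the log2 scale. Without proliferating replicate 4 at 21% O2, which held 3 of the 5 counts there, the first was 5.44. In both states the 21% O2 group alone would not have passed the filter on low counts, which fixed the direction of these calls. Smooth muscle cultures had 2, 1, 0 and 3 counts against 9, 13 and 4, also apart, but this pair did not reach the count filter and was not tested.

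In chondrocyte cultures Phospho1 was already at 1.87, 2.77, 1.20 and 1.06 CPM at 21% O2 and stood at 1.62, 2.08 and 2.12 CPM at 0.5% O2. These groups overlapped, with a log2 change of +0.16 (SE 0.34, edgeR adjusted p = 0.791). The rise of Phospho1 on chondrocyte differentiation was 5.74 at 21% O2 (SE 0.64, adjusted p = 4.41e-06) but 1.39 at 0.5% O2 (SE 0.31, edgeR adjusted p = 0.00145). The test of that difference gave -4.30 (SE 0.74, edgeR adjusted p = 0.000128). Without proliferating replicate 4 at 21% O2, the rise at 21% O2 was 6.68 and the difference -5.23. Proliferating cells at 21% O2 alone would not have passed the filter on low counts, which fixed the direction of the rise there. At 0.5% O2 the osteoblast cultures also exceeded proliferating cells, by 1.01 (SE 0.34, edgeR adjusted p = 0.0156), a call lost without replicate 2 of the proliferating cells (adjusted p = 0.0538), with scaling by total counts alone (0.0513) and in 1 fit over all 28 libraries (0.0853).

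Enpp1, which makes the mineral inhibitor pyrophosphate, fell at low oxygen in all 4 culture states, which share no libraries. Proliferating cells had 18.5, 17.6, 19.6 and 15.3 CPM at 21% O2 and 4.41, 4.55 and 5.14 CPM at 0.5% O2. Chondrocyte cultures had 26.2, 35.4, 45.5 and 42.4 CPM against 12.9, 18.5 and 13.7 CPM. The 2 oxygen groups were apart in both states, and Enpp1 was highest of all in the chondrocyte cultures at 21% O2. Osteoblast cultures had 5.58, 6.75, 7.47 and 6.07 CPM against 2.53, 3.25 and 3.96 CPM, and smooth muscle cultures had 16.6, 18.2, 16.7 and 14.9 CPM against 4.25, 2.14 and 3.40 CPM, again without overlap.

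On the log2 scale the Enpp1 changes at low oxygen were -1.93 in proliferating cells (SE 0.12, edgeR adjusted p = 7.51e-09), -1.33 in chondrocyte cultures (SE 0.21, adjusted p = 0.00255), -0.99 in osteoblast cultures (SE 0.20, adjusted p = 0.00236) and -2.19 in smooth muscle cultures (SE 0.21, adjusted p = 1.85e-07), the last -3.55 with scaling by total counts alone. The falls in osteoblast and chondrocyte cultures differed by 0.34 (SE 0.29, edgeR adjusted p = 0.379). The fall in osteoblast cultures was smaller than that in proliferating cells by 0.98 (SE 0.22, edgeR adjusted p = 0.00126). At 21% O2 Enpp1 rose in chondrocyte cultures by 1.10 (SE 0.16, edgeR adjusted p = 7.01e-05), fell in osteoblast cultures by 1.47 (SE 0.12, adjusted p = 2.08e-06), and did not pass in smooth muscle cultures (-0.13, SE 0.10, adjusted p = 0.22, but 0.0382 without replicate 4 of the proliferating cells). At 0.5% O2 it rose in chondrocyte cultures by 1.68 (SE 0.16, edgeR adjusted p = 8.08e-07). It was called lower in osteoblast cultures by 0.53 (SE 0.20, edgeR adjusted p = 0.0303), which was lost in 5 of 6 fits without 1 library, all but that without replicate 3 of the osteoblast cultures, with adjusted p up to 0.104.

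**Figure D2:**
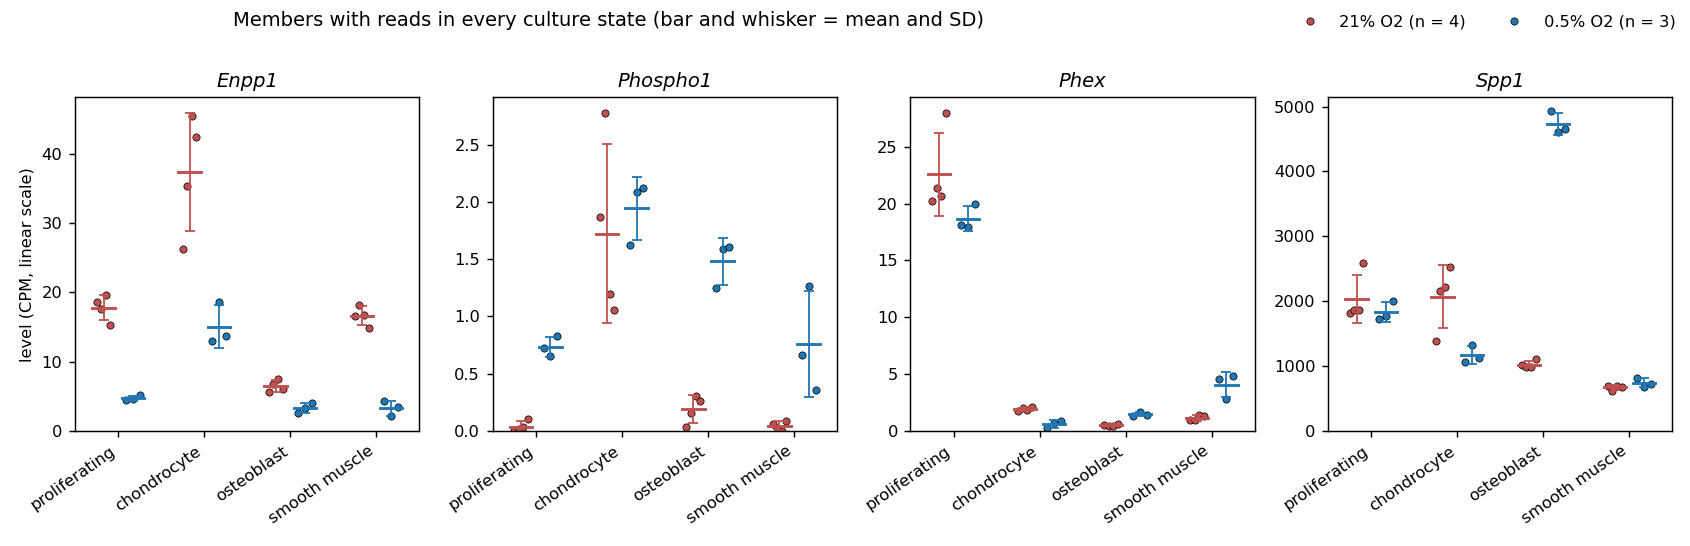
Enpp1, Phospho1, Phex and Spp1 (vertical axis, CPM, linear scale) in the 4 culture states, red for 21% O2 (n = 4) and blue for 0.5% O2 (n = 3), with 1 point per library and the mean and SD as bar and whisker. Enpp1 is lower at 0.5% O2 in every state, Phospho1 is apart and higher at 0.5% O2 in all states but the chondrocyte cultures, where the groups overlap, Phex is highest in proliferating cells, and Spp1 stands near 4730 CPM in osteoblast cultures at 0.5% O2.

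Ibsp, or bone sialoprotein, was the member with the widest range on a log scale. It had no count in the 7 proliferating libraries or the 3 smooth muscle libraries at 0.5% O2. Chondrocyte cultures held 772, 1901, 1267 and 734 CPM at 21% O2 and 460, 678 and 819 CPM at 0.5% O2, and these groups overlapped. Osteoblast cultures held 0.389, 0.479, 0.480 and 3.25 CPM at 21% O2 against 76.1, 70.2 and 64.1 CPM at 0.5% O2, far apart even with replicate 4 at the top of the first group.

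In osteoblast cultures low oxygen raised Ibsp by 5.89 on the log2 scale (SE 0.65, edgeR adjusted p = 0.00027), and by 7.28 without replicate 4 at 21% O2. In chondrocyte cultures the log2 change was -0.86 (SE 0.42) and did not pass (edgeR adjusted p = 0.219). The difference between these responses was 6.74 (SE 0.81, edgeR adjusted p = 7.87e-05), and 8.12 without that library. Against proliferating cells, where the floor is 3 counts over the group, Ibsp was at least 68431-fold higher in chondrocyte cultures and at least 67.3-fold higher in osteoblast cultures at 21% O2, the latter at least 26.3-fold without replicate 4. At 0.5% O2 the same bounds were at least 18895-fold in chondrocyte cultures and at least 2031-fold in osteoblast cultures. The log2 difference of osteoblast from chondrocyte cultures was -9.94 (SE 0.79, edgeR adjusted p = 1.43e-05) at 21% O2 (-11.33 without osteoblast replicate 4) and -3.23 (SE 0.20, adjusted p = 1.45e-06) at 0.5% O2.

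Mepe, which lies next to Ibsp and is known as an osteocyte protein and source of mineral-inhibiting peptides, parted from Ibsp at low oxygen. Chondrocyte cultures had 2.80, 11.7, 8.30 and 2.18 CPM at 21% O2 but 0.162, 0.0393 and 0.166 CPM at 0.5% O2, the latter from 5, 1 and 5 counts. Osteoblast cultures had 0.353, 0.240, 0.651 and 1.3 CPM at 21% O2 and 4.12, 3.18 and 3.03 CPM at 0.5% O2. Both pairs of groups were apart, and in opposite directions. The log2 change at low oxygen was -5.59 in chondrocyte cultures (SE 0.94, edgeR adjusted p = 0.00537, but 0.097 with limma-voom) and +2.41 in osteoblast cultures (SE 0.47, adjusted p = 0.00229). The responses differed by 7.996 (SE 1.02, edgeR adjusted p = 5.03e-05). Without replicate 4 of the osteoblast cultures at 21% O2, the osteoblast change was +3.02 and the difference 8.59.

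At 0.5% O2 Mepe was higher in osteoblast than in chondrocyte cultures by 4.71 (SE 0.43, edgeR adjusted p = 9.58e-07) while Ibsp was lower there. At 21% O2 both were lower in osteoblast cultures, Mepe by 3.26 (SE 0.69, edgeR adjusted p = 0.00298), or 3.87 without osteoblast replicate 4. No Mepe count was seen in proliferating cells or in smooth muscle cultures at 0.5% O2, and 4 counts in replicate 1 were all that smooth muscle cultures had at 21% O2.

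**Figure D3:**
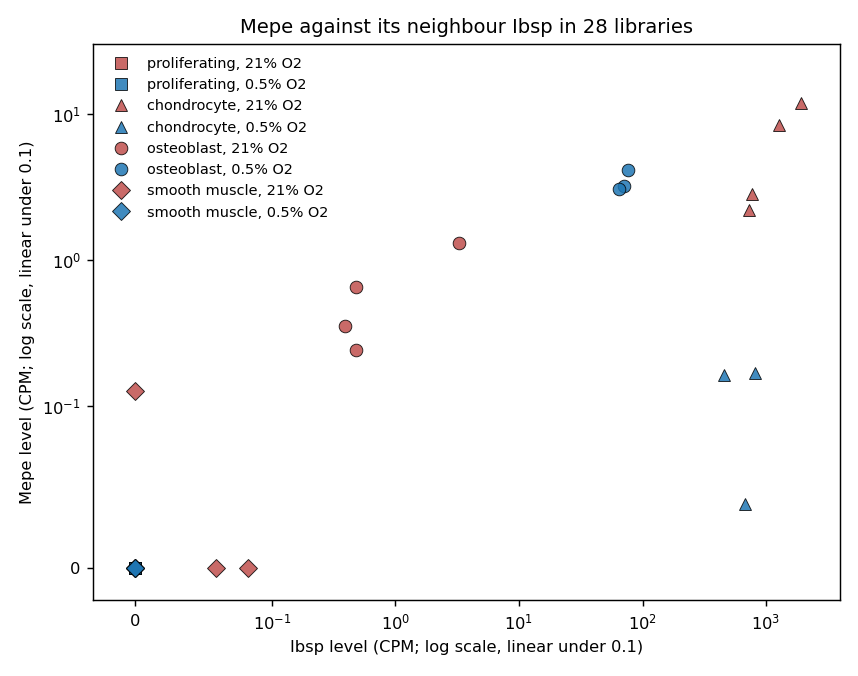
Level of Mepe against that of Ibsp (both CPM, log scales that are linear under 0.1) in the 28 libraries, with the shape giving the culture state, red for 21% O2 and blue for 0.5% O2. The chondrocyte cultures at 0.5% O2 sit at 460 to 819 CPM of Ibsp with at most 0.166 CPM of Mepe, while the osteoblast cultures at 0.5% O2 have 64.1 to 76.1 CPM of Ibsp with at least 3.03 CPM of Mepe.

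Dmp1, a mineral-nucleating matrix protein of osteocytes and odontoblasts, followed the same opposed pattern but was present in every state. Chondrocyte cultures had 44.5, 48.5, 37.9 and 51.0 CPM at 21% O2 and 5.71, 9.63 and 12.0 CPM at 0.5% O2. Osteoblast cultures had 2.01, 1.04, 1.13 and 0.455 CPM at 21% O2 and 7.04, 13.7 and 8.81 CPM at 0.5% O2. Neither pair overlapped, and here replicate 4 of the osteoblast cultures was the lowest of its group, not the highest. The log2 changes were -2.33 in chondrocyte cultures (SE 0.24, edgeR adjusted p = 0.000367) and +3.10 in osteoblast cultures (SE 0.41, adjusted p = 0.000298), and they differed by 5.43 (SE 0.51, adjusted p = 5.38e-06).

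Low oxygen also lowered Dmp1 in proliferating cells, from 3.60, 3.36, 2.56 and 2.81 CPM to 1.05, 0.873 and 0.690 CPM, a log2 change of -1.83 (SE 0.24, edgeR adjusted p = 1.33e-05). In smooth muscle cultures it went from 6.33, 4.06, 4.13 and 5.78 CPM to 1.17, 0 and 0.984 CPM (log2 change -2.61, SE 0.50, edgeR adjusted p = 0.000253, and -3.95 with scaling by total counts alone). Dmp1 rose at low oxygen in the osteoblast cultures and fell in the other 3 states. Osteoblast differentiation lowered Dmp1 at 21% O2 (-1.43, SE 0.36, edgeR adjusted p = 0.00459) and raised it at 0.5% O2 (+3.49, SE 0.28, adjusted p = 2.04e-08), with a test of the difference of 4.96 (SE 0.50, adjusted p = 8.23e-07). Chondrocyte differentiation raised it at both oxygen levels, by 3.90 (SE 0.13, edgeR adjusted p = 1.26e-10) and 3.38 (SE 0.30, adjusted p = 7.21e-07), and these differed by -0.49 (SE 0.36, adjusted p = 0.292).

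Spp1, osteopontin, which binds mineral and integrins and is made by many cell types, was abundant in every library. Proliferating cells had 1824, 1867, 1867 and 2584 CPM at 21% O2 and 1731, 1768 and 2008 CPM at 0.5% O2, overlapping. Osteoblast cultures had 1018, 980, 992 and 1102 CPM at 21% O2 and 4927, 4605 and 4658 CPM at 0.5% O2, far apart. Chondrocyte cultures had 1391, 2158, 2214 and 2520 CPM against 1064, 1322 and 1130 CPM, narrowly apart. The low-oxygen osteoblast cultures held the highest Spp1 level of the 8 groups.

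The log2 change of Spp1 at low oxygen was +2.21 in osteoblast cultures (SE 0.09, edgeR adjusted p = 3.11e-07) and -0.84 in chondrocyte cultures (SE 0.19, adjusted p = 0.0147). The chondrocyte fall was lost when replicate 1 or 3 at 0.5% O2 was left out (edgeR adjusted p = 0.0633 and 0.056) and without the filter on low counts (0.08). The 2 responses differed by 3.05 (SE 0.22, edgeR adjusted p = 9.55e-08). Osteoblast differentiation lowered Spp1 at 21% O2 (-1.0, SE 0.12, edgeR adjusted p = 2.68e-05) and raised it at 0.5% O2 (+1.37, SE 0.07, adjusted p = 1.43e-10), and the test of that difference gave 2.41 (SE 0.15, adjusted p = 5.84e-09). In smooth muscle cultures the groups overlapped at 608 to 698 and 684 to 821 CPM. The fitted log2 change there was +0.29 (SE 0.08, edgeR adjusted p = 0.00425) with TMM scaling but -1.08 (adjusted p = 2.63e-08) when libraries were scaled by total counts alone, so its direction rests on the scaling. It did not pass without the filter on low counts (0.0707) or in 1 fit over all 28 libraries (0.127). Scaling by total counts alone moved the log2 changes of this comparison by a median of -1.37 over the 79 members and listed genes tested, against -1.28 for smooth muscle cultures and proliferating cells at 0.5% O2 and -0.35 to 0.16 in the other 10 pairs.

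The osteocalcin genes were barely expressed. Bglap had 0 to 25 counts a library and Bglap2 0 to 62, and their transcripts share much sequence: 69.2% of the 50-base windows of Bglap2 transcripts occur in Bglap transcripts, and 37.9% in those of Bglap3, so their split between the copies is uncertain. Bglap2 had 10, 34, 21 and 62 counts in chondrocyte cultures at 21% O2 and 4, 5 and 2 at 0.5% O2, without overlap. In osteoblast cultures it had 1, 4, 0 and 14 counts at 21% O2 and 36, 37 and 27 at 0.5% O2, again without overlap and the other way round.

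For Bglap2 the log2 changes at low oxygen were -3.15 in chondrocyte cultures (SE 0.74, edgeR adjusted p = 0.0104) and +2.84 in osteoblast cultures (SE 0.76, adjusted p = 0.0114), differing by 5.99 (SE 1.16, adjusted p = 0.000886). Without replicate 4 of the osteoblast cultures at 21% O2, the osteoblast change was +4.22 and the difference 7.34. The chondrocyte call was lost without replicate 3 at 0.5% O2 (edgeR adjusted p = 0.0584) and with limma-voom (0.0658). Bglap had 12, 9, 23 and 25 counts in chondrocyte cultures at 21% O2 and 0, 0 and 1 at 0.5% O2, a ratio of 53.0 (95% counting interval 9.52 to 2095; edgeR adjusted p = 0.0019). In osteoblast cultures it had 0, 0, 1 and 14 counts against 8, 9 and 14, overlapping through replicate 4, and did not reach the count filter. Neither gene had a count in proliferating cells at 0.5% O2 or in smooth muscle cultures at 0.5% O2.

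Phex, the peptidase, was the only member that was highest in proliferating cells. They held 20.3, 21.3, 20.7 and 27.97 CPM at 21% O2 and 18.2, 18.0 and 19.97 CPM at 0.5% O2. Chondrocyte cultures held 1.74, 2.05, 1.83 and 2.07 CPM at 21% O2 and 0.259, 0.668 and 0.896 CPM at 0.5% O2, and osteoblast cultures 0.530, 0.399, 0.411 and 0.617 CPM against 1.32, 1.66 and 1.43 CPM. Both pairs were apart in opposite directions, as for Dmp1 and Mepe.

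Against proliferating cells, the log2 changes of Phex at 21% O2 were -3.52 in chondrocyte cultures (SE 0.14, edgeR adjusted p = 5.54e-10), -5.52 in osteoblast cultures (SE 0.18, adjusted p = 6.32e-09) and -4.33 in smooth muscle cultures (SE 0.16, adjusted p = 1.01e-12). At 0.5% O2 they were -4.94 (SE 0.25, edgeR adjusted p = 2.70e-09), -3.66 (SE 0.15, adjusted p = 8.73e-12) and -2.01 (SE 0.20, adjusted p = 3.86e-06), the last -3.28 with scaling by total counts alone. The low-oxygen fall was larger than the 21% O2 fall in chondrocyte cultures by a log2 difference of -1.39 (SE 0.31, edgeR adjusted p = 0.00128). It was smaller in osteoblast cultures by 1.89 (SE 0.24, edgeR adjusted p = 7.54e-06) and in smooth muscle cultures by 2.30 (SE 0.26, adjusted p = 8.50e-08; 0.97 with scaling by total counts alone). Smooth muscle cultures held 0.940, 0.933, 1.40 and 1.29 CPM at 21% O2 and 4.55, 2.82 and 4.83 CPM at 0.5% O2, apart, with a log2 change of +1.97 (SE 0.34, edgeR adjusted p = 9.91e-05) that was +0.61 and did not pass with scaling by total counts alone (adjusted p = 0.117). Neural crest markers (5 genes) moved with it: they summed to 2826 to 3539 CPM in the low-oxygen libraries labelled smooth muscle, with Tfap2b and Sox10 at 0, against 797 to 992 CPM at 21% O2 and 2727 to 2971 CPM in proliferating cells at 0.5% O2. TMM factors were 0.518 to 0.545 in these low-oxygen libraries and 1.14 to 1.15 in proliferating cells at 0.5% O2. How near the marker sums of these 2 groups stand therefore rests on the scaling. The part of the neural crest markers in the Phex change was not tested. Within the other states, low oxygen changed Phex by -1.68 in chondrocyte cultures (SE 0.38, edgeR adjusted p = 0.00877) and by +1.58 in osteoblast cultures (SE 0.30, adjusted p = 0.00201), a difference of 3.25 (SE 0.49, adjusted p = 0.000108). In proliferating cells the log2 change was -0.27 (SE 0.11, edgeR adjusted p = 0.0427). That call was lost without any 1 of the 3 low-oxygen libraries (adjusted p up to 0.129) and with limma-voom (0.0644). It was also lost in 1 fit over all 28 libraries (0.141) and with at least 10 counts required in every library (0.0545).

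Over the members as a list, differentiation at 21% O2 called 7 of the 9 tested higher and 1 lower in chondrocyte cultures, against 37.7% and 37.2% of all genes. For 5 of these 7 (Alpl, Ibsp, Bglap, Phospho1 and Mepe) the proliferating group was too low to pass the filter, so their direction was fixed, and of the 4 members with at least 10 counts in every library 2 were higher and 1 lower. Spp1 was the tested member that did not pass there (+0.06, SE 0.18, edgeR adjusted p = 0.796), and Bglap2 was not tested. In osteoblast cultures at 21% O2, 2 of 6 were higher (Alpl and Ibsp) and 4 lower (Spp1, Enpp1, Dmp1 and Phex), against 40.9% and 37.8% of all genes. In smooth muscle cultures at 21% O2, 2 of 5 were higher (Alpl and Dmp1, the latter lost in 1 fit over all 28 libraries, with adjusted p = 0.0653) and 2 lower (Spp1 and Phex), against 40.8% and 38.9%. Alpl, and Ibsp in osteoblast cultures, likewise passed the filter through the differentiated group. The 3 comparisons share the proliferating libraries.

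At 0.5% O2 the chondrocyte cultures had 5 of 7 members higher and 2 lower than proliferating cells, against 34.9% and 34.6% of all genes. The osteoblast cultures had 7 of 9 higher and 2 lower (Enpp1 and Phex), against 36.2% and 35.1%. The filter was passed through 1 group only by 3 of the 7 (Alpl, Ibsp and Phex) and 4 of the 9 (Alpl, Ibsp, Bglap2 and Mepe), and with at least 10 counts in every library 3 of 4 were higher and 1 lower, and 3 of 5 higher and 2 lower. The smooth muscle cultures had 0 of 5 higher and 2 lower (Spp1 and Phex), against 33.8% and 36.2%. There the other 3 tested members gave log2 changes of +0.21 for Phospho1, -0.34 for Enpp1 and -0.06 for Dmp1, with edgeR adjusted p of 0.772, 0.329 and 0.95 (without adjustment, none was under 0.05). With scaling by total counts alone, Enpp1 was at -1.60 and called lower there (adjusted p = 0.000397), and Spp1, at -1.13 with TMM, was at -2.40.

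Low oxygen itself left 0 of 10 members called higher and 8 lower in chondrocyte cultures, where 10.4% and 11.8% of all genes were called. The members that did not pass were Ibsp and Phospho1, and leaving out 1 library at a time gave 5 to 7 members called, with 5 without replicate 3 at 0.5% O2. In osteoblast cultures 7 of 9 were higher and 1 lower (Enpp1), against 27.0% and 27.3% of all genes. Markers moved in these cultures too. Chondrocyte markers summed to 181 to 198 CPM in replicates 1 to 3 at 21% O2 (1466 CPM in replicate 4) and to 591 to 634 CPM at 0.5% O2, with Matn1 at 0. Smooth muscle markers summed to 3103 to 4749 CPM at 21% O2 and to 1723 to 2031 CPM at 0.5% O2. Their part in the member changes was not tested. Without replicate 4 at 21% O2 this count rose to 9 of 9 called, Alpl being the addition. In proliferating cells 1 of 5 was higher (Phospho1) and 3 lower (Enpp1, Dmp1 and Phex), against 33.1% and 32.3%. Phospho1 passed the filter there only through the 0.5% O2 group, which fixed its direction. Of the 4 members with at least 10 counts in every library, 0 were higher and 2 lower. In smooth muscle cultures, with TMM scaling, 2 of 5 were higher (Spp1 and Phex) and 3 lower (Alpl, Enpp1 and Dmp1), against 35.4% and 40.2%. Alpl and Dmp1 passed the filter there only through the 21% O2 group, which fixed their direction. Of the 3 members with at least 10 counts in every library, 2 were higher and 1 lower. With total counts alone the smooth muscle split was 0 higher and 4 lower (Alpl, Spp1, Enpp1 and Dmp1).

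**Figure D4:**
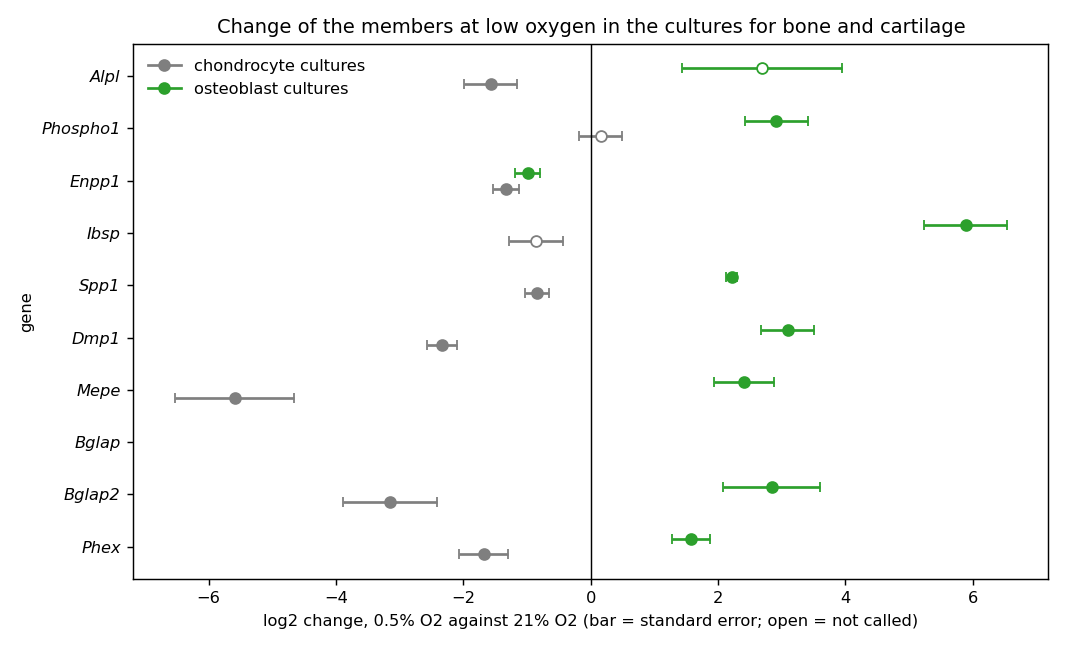
Log2 change at 0.5% O2 against 21% O2 (horizontal axis, with the standard error as a bar) of each gene in chondrocyte cultures (grey) and osteoblast cultures (green); open points did not pass edgeR's test. Bglap is not drawn because it was not tested in osteoblast cultures and rests on 1 count in chondrocyte cultures at 0.5% O2; Enpp1 falls on the left in both, and Spp1, Dmp1, Mepe, Bglap2 and Phex fall on opposite sides.

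Between the 2 skeletal cultures at 21% O2, 0 of 10 members were higher and 9 lower in osteoblast than in chondrocyte cultures, against 31.1% and 28.6% of all genes. Of the 9, 3 (Bglap2, Phospho1 and Mepe) passed the filter only through the chondrocyte cultures, and all 6 members with at least 10 counts in every library were called lower. Bglap did not pass (-2.21, SE 0.91, edgeR adjusted p = 0.0602, but called without replicate 4 of the osteoblast cultures, with limma-voom and in 1 fit over all 28 libraries), and the Bglap2 call was lost without replicate 4 of the chondrocyte cultures or replicate 1 or 2 of the osteoblast cultures (adjusted p up to 0.0632). The Alpl difference was -4.50, or -7.16 without replicate 4 of the osteoblast cultures, and that of Bglap2 -2.77, or -4.15. At 0.5% O2, 4 of 9 were higher in osteoblast cultures (Spp1, Bglap2, Mepe and Phex) and 2 lower (Ibsp and Enpp1), against 29.0% and 28.6% of all genes. Bglap2, Mepe and Phex passed the filter only through the osteoblast cultures, and of 6 members with at least 10 counts in every library 1 was higher and 2 lower. Alpl overlapped between the culture types here, with a log2 change of -0.27 (SE 0.18, edgeR adjusted p = 0.226, but 0.00518 without replicate 1 of the chondrocyte cultures and 0.0253 without the filter on low counts). The Phex call (+1.26, SE 0.45, edgeR adjusted p = 0.0281) was lost in 3 of 6 fits without 1 library, those without replicate 1 of the chondrocyte cultures or replicate 2 or 3 of the osteoblast cultures, with adjusted p up to 0.0912.

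Whether differentiation itself depended on oxygen was tested in a model over 4 groups. For chondrocyte cultures 0 of 10 members had a higher change at 0.5% O2 and 3 a lower one (Spp1, Phospho1 and Phex), against 21.6% and 21.9% of all genes. Of these 10, 7 had a group that alone would not have passed the filter, among them Phospho1 and Phex. Of the 3 members with at least 10 counts in every library, 1 had a lower change. The Spp1 call (-0.67, SE 0.26, edgeR adjusted p = 0.049) was lost in 11 of 14 fits without 1 library, with adjusted p up to 0.119. It was also lost with limma-voom (0.0727) and without the filter on low counts (0.125). Calls were gained there for Mepe with DESeq2 (adjusted p = 0.00699), Bglap with limma-voom (0.024) and Enpp1 in 1 fit over all 28 libraries (0.0401). For osteoblast cultures 4 of 9 were higher (Spp1, Enpp1, Dmp1 and Phex) and 0 lower, against 28.9% and 25.3%. Ibsp also passed there with DESeq2 (adjusted p = 0.018) and limma-voom (0.00194), Bglap2 with limma-voom (0.0403) and Alpl without osteoblast replicate 4 at 21% O2 (edgeR adjusted p = 0.009). Phospho1 was called lower there (-2.44, edgeR adjusted p = 0.0349) without proliferating replicate 4 at 21% O2. For smooth muscle cultures 2 of 6 were higher (Spp1 and Phex) and 0 lower, against 34.9% and 35.5%. With total counts alone, 1 member was higher there (Phex) and 4 were lower: Spp1 at -0.85 (0.49 with TMM), Enpp1 at -1.54 (adjusted p = 4.71e-06), Dmp1 at -2.05 (adjusted p = 0.00283), and Alpl, which also passed with DESeq2, limma-voom and no filter on low counts. The split of these counts rests on the scaling. These tests give no usable size for Alpl, Ibsp, Mepe, Bglap or Bglap2, whose proliferating libraries at 0.5% O2 held no count or 1 count. Enpp1 did not pass for chondrocyte cultures (+0.61, SE 0.26, edgeR adjusted p = 0.0688), though it did without replicate 1 of those cultures at 0.5% O2 or replicate 3 at 21% O2 (0.0487 and 0.0254).

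For the direct comparison of the oxygen responses of osteoblast and chondrocyte cultures, the largest member difference was that of Mepe (7.996) and the smallest that passed was Phospho1 (2.75, SE 0.61, edgeR adjusted p = 0.00228). The Alpl difference of 4.26 (SE 1.38, edgeR adjusted p = 0.032; 6.91 without osteoblast replicate 4 at 21% O2) was lost in 8 of 14 fits without 1 library, with adjusted p up to 0.0743, so the count was 8 or 9 of 10 across those fits. It was also lost without the filter on low counts (0.0558). The count was 9 without replicate 4 of the osteoblast cultures. Bglap passed too, but its size is not given because it rests on 1 count in a group.

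The wider pathway is described by counts of genes called, to be read against the shares of all genes called at low oxygen, 27.0% higher and 27.3% lower in osteoblast cultures and 10.4% and 11.8% in chondrocyte cultures. Of the 13 genes of phosphate and pyrophosphate handling and matrix vesicles other than the members, 5 rose and 4 fell at low oxygen in osteoblast cultures (median log2 change 0.08, against -0.03 over all genes), and 3 of 12 rose and 4 fell in chondrocyte cultures (median -0.12, against -0.01 over all genes). The largest rise in osteoblast cultures was that of Nt5e, which makes adenosine from AMP (+1.31, SE 0.23, edgeR adjusted p = 0.00173), and the largest fall that of Abcc6, which rests on 1 count at 0.5% O2. The largest fall in chondrocyte cultures was that of Enpp3, a relative of Enpp1, at -1.86 (SE 0.18, adjusted p = 3.41e-05). Among 14 other mineral-binding proteins and their processing enzymes, 1 of 9 tested rose and 6 fell in osteoblast cultures, with Fam20a, a cofactor of the kinase that phosphorylates SIBLING proteins, at +1.29 (SE 0.17, edgeR adjusted p = 0.000244) and that kinase, Fam20c, at -1.38 (SE 0.11, adjusted p = 1.29e-05). In chondrocyte cultures 1 of these 9 rose and 3 fell, led by Omd, osteomodulin, at -1.50 (SE 0.29, edgeR adjusted p = 0.0124).

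Of 16 regulators upstream of the members, 4 of 15 rose and 3 fell in osteoblast cultures at low oxygen, with Runx2 at +1.14 (SE 0.10, edgeR adjusted p = 2.09e-05) and Msx1 at -4.04 (SE 0.15, adjusted p = 1.65e-07). In chondrocyte cultures 1 of 16 rose and 4 fell, with Runx2 at -0.11 (SE 0.08, edgeR adjusted p = 0.371) and Dlx6 at -3.01 (SE 0.29, adjusted p = 3.74e-05). Runx2 in chondrocyte cultures, and Sp7 in both, are named outside the rule after their values were seen. The Runx2 response differed between the cultures by 1.24 (SE 0.13, edgeR adjusted p = 4.99e-06). Sp7, osterix, a zinc-finger factor of osteoblasts, gave +2.97 (SE 1.45, edgeR adjusted p = 0.131) in osteoblast cultures and +0.46 (SE 0.27, adjusted p = 0.292) in chondrocyte cultures. Receptors of osteopontin and bone sialoprotein were split, with 4 of 9 up and 2 down in osteoblast cultures and 3 up and 2 down in chondrocyte cultures, and in osteoblast cultures Itga4 rose most, by 2.51 (SE 0.63, edgeR adjusted p = 0.00857), and Itga8 fell most, at -2.36 (SE 0.30, adjusted p = 0.00031). In chondrocyte cultures the largest rise was that of Itgb1 (+0.44, SE 0.09, edgeR adjusted p = 0.0045) and the largest fall that of Itga9 (-1.16, SE 0.16, adjusted p = 0.000428), both integrin subunits.

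Of the 10 growth plate genes, 0 of 9 tested rose and 7 fell at low oxygen in chondrocyte cultures, against 10.4% and 11.8% of all genes (median log2 change -1.66, against -0.01 over all genes), and their summed level was 7422 to 14645 CPM at 21% O2 and 5569 to 5964 CPM at 0.5% O2. In osteoblast cultures 2 of 8 rose and 1 fell, against 27.0% and 27.3% of all genes, with Mmp13, a collagenase of hypertrophic cartilage and bone, at +3.36 (SE 0.10, edgeR adjusted p = 5.78e-08), and Col11a1, a cartilage collagen, at -0.84 (SE 0.09, adjusted p = 5.36e-05). The part of these shifts in the member changes was not tested. All 10 oxygen response genes rose at 0.5% O2 in each of the 4 states, with median log2 changes of 4.33 in proliferating cells, 1.71 in chondrocyte cultures, 3.67 in osteoblast cultures and 3.71 in smooth muscle cultures. At 21% O2, 9 of the 10 were higher in chondrocyte cultures than in proliferating cells (median 2.06), against 37.7% of all genes. In osteoblast against chondrocyte cultures at 21% O2, 9 were lower and 1 higher, against 28.6% and 31.1%. Their response to low oxygen was higher in osteoblast than in chondrocyte cultures for 9 of 10 (median 2.08), against 20.1%. The part of this in the member changes was not tested.

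Macrophage and osteoclast markers (10 genes), whose cells also make osteopontin, summed to at most 6.03 CPM in all groups but the low-oxygen smooth muscle cultures, where they reached 33.6 to 36.7 CPM with Cd68 leading (+5.82 against 21% O2, SE 0.19, edgeR adjusted p = 5.80e-13) and 6 of the 10 at 0 (Adgre1, Aif1, Tyrobp, Fcer1g, Ctsk and Dcstamp). In the low-oxygen osteoblast cultures, where Spp1 stood highest, they summed to 2.10 to 3.73 CPM with Adgre1, Aif1 and Tyrobp at 0. Adipocyte markers (8 genes) summed to 56.1 to 61.1 CPM in those cultures against 10.7 to 17.9 CPM at 21% O2, with Adipoq, Cidec and Lep at 0. Of the 4 adipocyte markers tested there, 2 rose, led by Pparg at +2.74 (SE 0.12, edgeR adjusted p = 4.21e-07), and 2 fell, led by Lpl at -4.01 (SE 0.74, adjusted p = 0.00159). Epithelial and endothelial markers (8 genes) summed to at most 19.3 CPM, in the chondrocyte cultures at 0.5% O2. The part of any of these in the member changes was not tested.

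By mean level over the 8 groups, Alpl stood at 264 ± 98.6 CPM (SD, n = 4) in chondrocyte cultures at 21% O2, then at 89.9 ± 24.2 (n = 3) in chondrocyte cultures and 75.2 ± 8.09 (n = 3) in osteoblast cultures at 0.5% O2, which overlapped, then at 11.5 ± 19.4 (n = 4) in osteoblast cultures at 21% O2. Spp1 led at 4730 ± 172 CPM (SD, n = 3) in osteoblast cultures at 0.5% O2, apart from the next 3 groups, chondrocyte and proliferating cultures at 21% O2 and proliferating cells at 0.5% O2, each of which overlapped its neighbour. Dmp1 led at 45.5 ± 5.74 CPM (SD, n = 4) in chondrocyte cultures at 21% O2, apart from the osteoblast and chondrocyte cultures at 0.5% O2, which overlapped at 9.85 ± 3.45 and 9.12 ± 3.20 (n = 3 each). Enpp1 ran from 37.4 ± 8.57 CPM (SD, n = 4) in chondrocyte cultures at 21% O2 to 3.24 ± 0.716 (n = 3) in osteoblast cultures at 0.5% O2, which overlapped the smooth muscle cultures at 0.5% O2.

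Per kilobase of exon, Spp1 was the most abundant member in chondrocyte cultures at 21% O2 (mean 1257 CPM per kb), followed by Ibsp (565), Alpl (65.5) and Dmp1 (16.5), with Phospho1 at 0.849 and Phex at 0.306. In osteoblast cultures at 0.5% O2, Spp1 stood at 2870 CPM per kb, Ibsp at 33.9 and Alpl at 18.7. Across the 28 libraries, Alpl and Ibsp had the highest correlation of any member pair (Pearson r = 0.945 on the log2(CPM + 1) scale), and Alpl and Phex the lowest (r = -0.587). Spp1 had r = 0.412 to Ibsp and 0.393 to Dmp1, and Enpp1 had r = 0.383 to Alpl. These libraries fall into 8 groups, so each r describes mainly differences between groups.

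The 5 genes most like each of Alpl, Ibsp, Spp1 and Enpp1 over the 28 libraries, by Pearson r of log2(CPM + 1), were listed. For Alpl they were Sp7 (0.967), G0s2 (0.963), Wif1 (0.956), Tmie (0.955) and Pth1r (0.954). For Ibsp they were Tmie (0.996), Tusc5 (0.985), Lurap1l (0.979), Adgrd1 (0.976) and Serpina1e (0.973). Sp7 is the osteoblast factor described above and Pth1r the receptor for parathyroid hormone. For Spp1 they were Gclc (0.906), Gad2 (0.902), Tead4 (0.876), Ccbe1 (0.873) and Uhrf1bp1l (0.869), and for Enpp1 Ankrd13a (0.918), Pde7a (0.870), Mark3 (0.867), Tigar (0.860) and Chuk (0.854). Ranking by Spearman rho kept 2 of the 5 for Alpl, 1 for Ibsp, 2 for Spp1 and 1 for Enpp1.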

How the data were processed

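Polyadenylated RNA was sequenced from stranded libraries, per the labels' protocols. The submitters' processing notes name the build mm10 and the tools HISAT2 2.0.5, StringTie 1.3.3b and featureCounts 1.5.0-p3, with no order or role; whether counting used strand or reads shared between copies is not given in the sources used here. The deposited values are raw counts per gene, and a further 10 deposited tables hold the authors' log2 fold changes, per the file headers, of which only the gene symbols entered the text. Symbols came from those tables (20019 genes) and otherwise from reference gene names (34311). The labels give each library's group, and none of the 36 replicate pairs was identical. Genes were filtered with filterByExpr (10 counts, total of 15), scaled by TMM and tested within each pair of groups (4 groups for differences between changes) with edgeR 4.0.16 (R 4.3.3, quasi-likelihood, two-sided), adjusting p-values by Benjamini-Hochberg over all genes tested. The standard error is the log2 change divided by the root of the F statistic. Against a group without counts, a fold is a lower bound at 3 counts over the group; with 1 count, it is a ratio with a 95% interval for counting error only. Alternatives were DESeq2 1.42.0 size factors and Wald test, limma-voom (limma 3.58.1), total counts alone, other filters, 1 fit over all libraries, a replicate block and leaving out each library. The scripts were tested on simulated data. Members and lists were chosen with earlier results of these data known. All 10 members were named in every comparison, and the genes named from a list are those called with its largest rise or fall. Pth1r is on 2 lists. Promoters, from RefSeq, and gene models, from GENCODE, were used as given.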

Additional observations from a re-analysis of the deposited data

Results flagged for a closer look

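In groups of 4 libraries, 36 member and group combinations could be tested for 1 library far from the other 3, and 10 were. In 4 of these the other 3 libraries had no count, which fixes the flag (Alpl and Bglap in proliferating cells, Bglap and Mepe in smooth muscle cultures). In the other 32 combinations 6 were flagged, and chance flags about 1 in 20. All 6 were replicate 4, a number that no group at 0.5% O2 has, so they are not separate cases. Replicate 4 of the osteoblast cultures at 21% O2 was far above the others for Alpl (40.6 CPM), Ibsp (3.25 CPM) and Bglap (0.455 CPM). In proliferating cells at 21% O2, single libraries stood apart for Alpl (0.128 CPM), Bglap (0.105 CPM) and, in replicate 4, Spp1 (2584 CPM) and Phex (27.97 CPM). In smooth muscle cultures at 21% O2 they did for Alpl (5.03 CPM, replicate 4), Bglap (0.137 CPM) and Mepe (0.125 CPM).

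By edgeR's test of the difference itself, the change on chondrocyte differentiation differed between oxygen levels for Spp1 (log2 difference -0.67), Phospho1 (-4.30) and Phex (-1.39). Phospho1 and Phex had a group there that alone would not have passed the filter on low counts. The Spp1 call was lost with limma-voom (adjusted p = 0.0727) and without that filter (edgeR adjusted p = 0.125). The change on osteoblast differentiation differed for Spp1 (2.41), Enpp1 (0.98), Dmp1 (4.96) and Phex (1.89), and that in smooth muscle cultures for Spp1 (0.49, but -0.85 with scaling by total counts alone) and Phex (2.30). The response to low oxygen was higher in osteoblast than in chondrocyte cultures for Alpl (4.26), Ibsp (6.74), Spp1 (3.05), Bglap2 (5.99), Phospho1 (2.75), Dmp1 (5.43), Mepe (7.996) and Phex (3.25). The Alpl call was lost in 8 of 14 fits without 1 library and without the filter on low counts (edgeR adjusted p = 0.0558). Without osteoblast replicate 4 at 21% O2 the differences were 6.91 for Alpl, 8.12 for Ibsp, 7.34 for Bglap2 and 8.59 for Mepe.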

How the results depend on the processing

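Low counts limit Bglap, Bglap2, Phospho1 and Mepe, and the low-oxygen smooth muscle libraries limit what depends on scaling. Requiring 10 counts in every library tests fewer genes by construction, and the members called against proliferating cells were then 3 in chondrocyte cultures at 21% O2, and 4 and 5 in chondrocyte and osteoblast cultures at 0.5% O2. Between oxygen levels they were 2 in proliferating cells, 4 in chondrocyte, 5 in osteoblast and 3 in smooth muscle cultures. They were 3 between osteoblast and chondrocyte cultures at 0.5% O2, 1 for the oxygen dependence of the chondrocyte change and 4 for the oxygen responses of osteoblast against chondrocyte cultures. With limma-voom 5 members were called at low oxygen in chondrocyte cultures. Leaving out 1 library there gave 5 to 7 members and 2091 to 3359 genes called, against 3157, with the fewest without replicate 3 at 0.5% O2. Scaling by total counts alone called 5 members for the oxygen dependence of the smooth muscle change, 1 higher and 4 lower.

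Directions reversed as follows, and the cause was not tested. For Spp1, chondrocyte against proliferating cultures at 21% O2 gave -0.30 with total counts alone, -0.016 in 1 fit over all libraries and -0.037 without chondrocyte replicate 4, with 0.22 the highest without 1 library. Total counts alone gave -1.08 for Spp1 at low oxygen in smooth muscle cultures, -0.85 for the oxygen dependence of its smooth muscle change, and -1.07 for Phospho1 in smooth muscle against proliferating cells at 0.5% O2, where leaving out 1 library gave -0.34 (smooth muscle replicate 2) to 0.52. Dmp1 in that comparison gave 0.066 and 0.47 without proliferating replicate 1 and smooth muscle replicate 2, and -0.60 at the lowest. Phospho1 at low oxygen in chondrocyte cultures gave -0.016 (without replicate 4 at 21% O2) to 0.48. Dmp1 in osteoblast against chondrocyte cultures at 0.5% O2 gave -0.15 and -0.20 without chondrocyte replicate 1 and osteoblast replicate 2, and 0.35 at the highest. The oxygen dependence of the Phospho1 change in smooth muscle cultures gave 0.025, 0.068, 0.12 and 0.23 without smooth muscle replicate 3 at 0.5% O2, proliferating replicate 1 or 2 at 21% O2 and smooth muscle replicate 4 at 21% O2, and -1.24 at the lowest. The fitted oxygen dependence of the Alpl change in chondrocyte cultures ran from -3.59 to 1.25 without 1 library, but these are no measured sizes and no reversal: proliferating cells at 0.5% O2 held 1 Alpl count, and none in the fit without replicate 1 that gave 1.25.

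Same-numbered libraries did not deviate together (correlations -0.18 to 0.081), so they share only a number. The block needs numbers present in every group, so in comparisons between oxygen levels it also leaves out replicate 4 at 21% O2, and a call gained there cannot be put down to the block alone; leaving out osteoblast replicate 4 without a block gave 9376 genes, Alpl at 5.36 and Ibsp at 7.28. With the replicate block, 9183 genes were called at low oxygen in osteoblast cultures against 7890, and 2790 in chondrocyte cultures against 3157. Of 121 results, 116 kept direction and side of the threshold with the block and 5 passed in addition: Ibsp at low oxygen in chondrocyte cultures (-0.97, edgeR adjusted p = 0.0194), Alpl at low oxygen in osteoblast cultures (5.36), Bglap in osteoblast against chondrocyte cultures at 21% O2 (-2.79), and the oxygen dependence of the chondrocyte change of Enpp1 (0.76) and of the osteoblast change of Alpl, whose size rests on 1 count.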
